A study of Mus musculus with 12 samples.

Results

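The data describe gene expression in the control neocortex of mouse embryos at E14.5, the middle of the period in which cortical neurons are born. They consist of the 3 arrays labelled wild type, chosen by that genotype label from the 12 arrays of a study of the transcription factors *Tbr1* and *Eomes* (Tbr2). The other arrays came from *Tbr1* KO (4 arrays), *Tbr2* cKO (2 arrays) and *Tbr1/2* dKO (3 arrays) embryos, and their levels were not compared with the controls. RNA of each embryo's dissected neocortex was hybridised to its own Affymetrix Mouse Exon 1.0 ST array, so that the 3 controls are independent embryos. By the study's methods the controls carried 2 normal *Tbr1* alleles and no recombined *Tbr2* allele, which allows a floxed *Tbr2* allele in some of them, and the labels do not say in which. No treatment is given for any control, and each array is 1 whole neocortex, which mixes all its cell types.

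At this age the cortical wall is layered. Radial glial progenitors (RGPs) line the ventricle and divide to produce intermediate progenitors (IPs), which leave the surface and divide again to give glutamatergic projection neurons. The neurons settle in the cortical plate, deep layers before upper layers, while inhibitory interneurons arrive by migration from the ganglionic eminences. *Pax6* is best known in RGPs, *Eomes* in IPs and *Tbr1* in young neurons, and the 3 factors act in sequence along this lineage.

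Values are log2 intensities summarised by RMA (robust multi-array average), which averages the probes of a transcript, so that the value does not grow with transcript length. Probes differ in how strongly they bind, however, so an order of signals between genes is an order of array signal and not of transcript numbers. In a whole tissue, fewer cells of a type and less RNA per cell cannot be told apart. Of 23332 probesets, 14996 carried 1 gene symbol and gave 14860 genes, which were the features described.

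The mean signal of a gene over the 3 controls had a median of 8.74 over all genes, with quartiles of 6.93 and 10.26 and a range from 3.08 to 14.34. The SD of the mean signal across genes was 2.14, whereas the SD of a gene between the 3 embryos had a median of 0.0957. Without control 3 the median SD was 0.0573. Only 544 genes (3.66%) had a mean over 12, and 77 genes (0.518%) had a mean over 13.

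RMA values carry no detection call. The 712 olfactory receptor genes measured, a family known for the nasal epithelium, were used to show the signal of genes with little or no transcript. Their median mean was 5.24, and their 95th percentile was 7.35, 7.51 and 7.53 in controls 1, 2 and 3. A gene was called above the limit when its value exceeded that percentile on all 3 arrays. This held for 9648 genes (64.9%), while 4637 genes were above it on no array and 575 on 1 or 2 arrays. By construction some olfactory receptor genes passed (24 of 712, 3.37%), and none of the 81 vomeronasal receptor genes did. With the 99th percentile (8.18 to 8.28) as a stricter limit, 8227 genes (55.4%) passed.

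**Figure D1:**
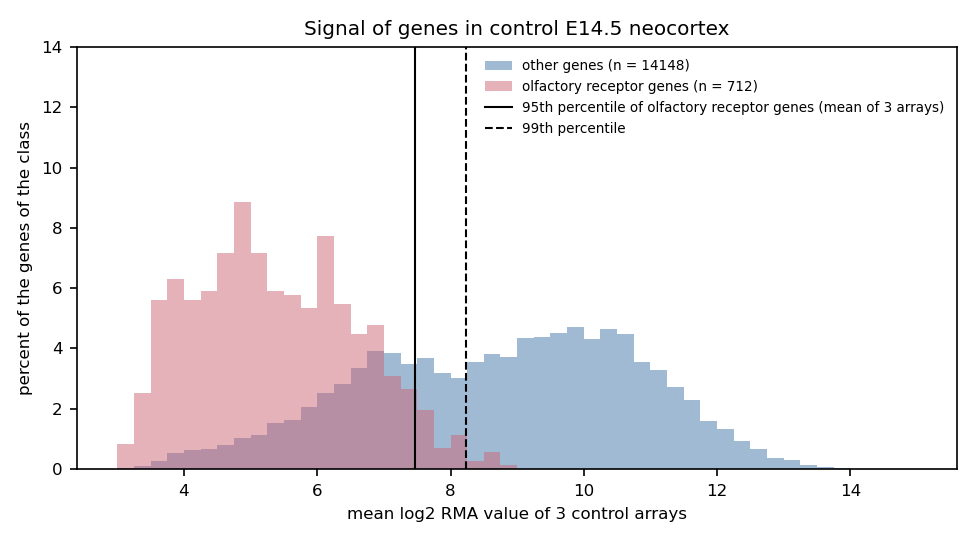
Distribution of the mean log2 RMA value of 3 control arrays (x axis, bins of equal width) as a percent of the genes of each class (y axis), for 712 olfactory receptor genes and all other genes. The olfactory receptor genes lie mostly left of the solid line (95th percentile) and the other genes spread to 14.34, with a broad second rise to the right of both lines.

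Neither limit is an exact border. In the list of genes known for other brain regions and organs, 7 of 19 passed the first limit (*Gbx2*, *Ckm*, *Prm2*, *Prm1*, *En1*, *Myod1* and *Barhl1*) but 1 of 19 (*Gbx2*, mean 8.46) the stricter one. The 36 keratins, structural proteins of epithelia, gave 3 above the first limit (*Krt10*, *Krt42* and *Krt88*, means 7.68 to 7.73) and 0 above the stricter one. The count at the stricter limit is therefore given beside the first where it is lower. For comparison, the shares over all genes are 64.9% at the first limit and 55.4% at the stricter one. A value under the limit does not show absence either. Among 20 genes matched as cytosolic ribosomal proteins, which every cell uses, *Rpl8* had a mean of 12.75 and *Rps9* of 12.42, but 6 were not above the limit (10 of 20 passed the stricter one), among them *Rpl4* at 6.44, a gene picked out after its value was seen.

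The 30 genes with the highest signal included genes best known from dividing progenitors and genes best known from neurons. They are arranged below by known role, a grouping made after the ranks were seen. *Actb*, which encodes cytoplasmic beta-actin, led with 14.33, 14.33 and 14.37 in controls 1, 2 and 3. The next was *Tubb2b*, a beta-tubulin of migrating neurons, with 13.98, 13.84 and 13.91, and *Tubb5*, another beta-tubulin, had a mean of 13.85 ± 0.07 (SD, n = 3). The values of a gene among the 30 differed between embryos by up to 0.24 (*Dbi*), while the 29 means below *Actb* span 13.40 to 13.91, so that the order within the 30 is loose.

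Some of them act in the cytoskeleton and in growing neurites. *Dpysl2* (13.88 ± 0.07) and *Dpysl3* (13.44 ± 0.07) encode collapsin response mediator proteins, which act in axon growth. *Map1b* (13.47 ± 0.12) and *Dcx* (13.41 ± 0.07) encode microtubule-associated proteins of young neurons, *Gpm6a* (13.45 ± 0.05) a membrane protein of growing neurites, and *Cdc42* (13.64 ± 0.05) a small GTPase that organises actin. *Islr2* (13.53 ± 0.09), *Rtn3* (13.50 ± 0.02), *Ctxn1* (13.51 ± 0.02) and *Nrep* (13.40 ± 0.02) were also in the group.

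The progenitor side was represented by *Fabp7*, the brain lipid-binding protein of radial glia, with 13.93, 13.84 and 13.78 in controls 1, 2 and 3, and by *Vim*, the intermediate filament vimentin of radial glia, with 13.65, 13.65 and 13.64. *Cdk4*, the kinase that drives cells through G1, had 13.91, 13.87 and 13.92. *Ctnnb1*, which encodes beta-catenin of adherens junctions and Wnt signalling, had a mean of 13.47 ± 0.01.

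Metabolic and housekeeping genes among the 30 included *Eef2* (13.90 ± 0.01), a translation elongation factor, *Atp5b* (13.68 ± 0.03) and *Atp5d* (13.57 ± 0.03), subunits of the mitochondrial ATP synthase, *Ckb* (13.71 ± 0.06), brain creatine kinase, and *Scd2* (13.45 ± 0.04), which desaturates fatty acids. *Gnb1*, *Myl12b*, *Ppp2r1a*, *Bsg*, *Dbi* and *Ttyh3* had means between 13.40 and 13.88. Transcription factors in the 30 were *Nfix* (13.69 ± 0.06) and *Nfib* (13.54 ± 0.06), both of the nuclear factor I family. Of the 100 probesets with the highest mean, 58 carried no symbol and 5 several, so that this ranking covers the 37 that name 1 gene.

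Promoter composition followed the signal. RefSeq promoter windows on GRCm38.p6, from 250 bases before to 50 after the gene start, were matched by symbol to 9669 of the 14860 genes, those with a single window. A window was called CpG-rich with at least 55% G and C and an observed-to-expected CG ratio of at least 0.65. Most vertebrate promoters that hold many CG dinucleotides are known to be unmethylated and broadly active, while a TATA box close to the start is typical of tissue-restricted genes. Genes were put in 5 equal bins by mean control signal. From the lowest to the highest bin, 5.998%, 22.5%, 55.6%, 67.9% and 73.3% of windows were CpG-rich, against 45.1% of all 9669. Without sensory receptor genes the share in the lowest bin was 10.0%. Among genes above the limit 64.2% (of 6127) were CpG-rich and among those not above it 12.1% (of 3542), and the 597 olfactory receptor windows held 0. The letters TATAAA were searched on the strand of the gene from 40 to 20 bases before the start. They were found in 6.31%, 4.50%, 1.65%, 0.827% and 0.828% of the bins from lowest to highest, and in 2.82% of all 9669 windows. On either strand and anywhere in the window, TATAAA was found in 29.3% of the lowest and 5.33% of the highest bin, against 12.4% of all 9669 windows. These shares are descriptions over genes, which are not replicates, and the base composition of the array probes was not analysed.

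**Figure D2:**
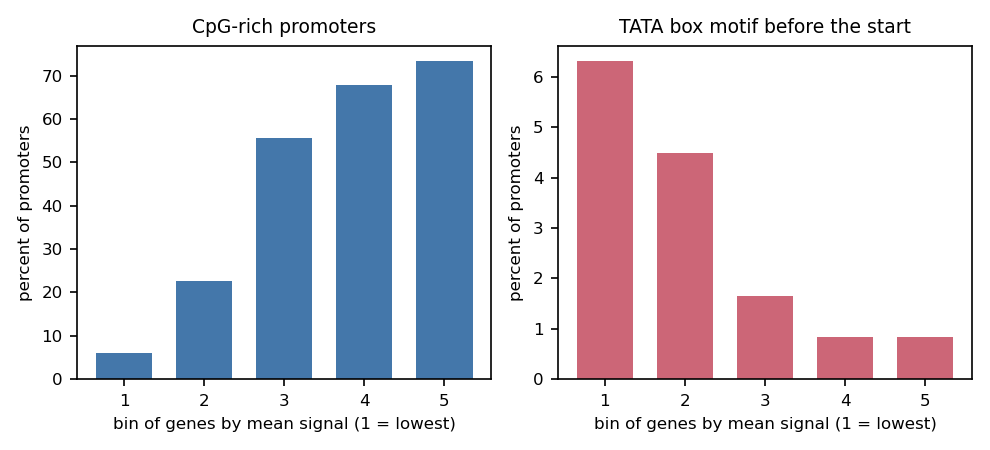
Percent of promoter windows (y axis) that were CpG-rich (left) or held the letters TATAAA from 40 to 20 bases before the gene start (right), in 5 equal bins of 9669 genes by mean control signal (x axis, 1 is the lowest). The CpG-rich share is 5.998% in the lowest (10.0% without sensory receptor genes) and 73.3% in the highest bin, and the TATAAA share 6.31% and 0.828%.

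A few promoters show the range, given here as the 250 bases before the start, 5′ to 3′, with every CG and TATAAA in capitals. They are *Sox2* (chr3:34649745-34649994, plus strand) of radial glia and *Reln* (chr5:22344706-22344955, minus strand) of Cajal-Retzius cells, both CpG-rich, the pair of T-box genes that the study deleted, *Eomes* (chr9:118477939-118478188, plus strand) and *Tbr1* (chr2:61804203-61804452, plus strand), and *Hba-x* (chr11:32276350-32276599, plus strand), an embryonic alpha-like globin of red cells.
Sox2: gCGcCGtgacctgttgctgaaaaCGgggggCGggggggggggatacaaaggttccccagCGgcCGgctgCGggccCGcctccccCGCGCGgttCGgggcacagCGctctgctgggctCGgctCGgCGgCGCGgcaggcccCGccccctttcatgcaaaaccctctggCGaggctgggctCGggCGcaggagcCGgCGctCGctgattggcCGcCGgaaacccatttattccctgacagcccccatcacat
Reln: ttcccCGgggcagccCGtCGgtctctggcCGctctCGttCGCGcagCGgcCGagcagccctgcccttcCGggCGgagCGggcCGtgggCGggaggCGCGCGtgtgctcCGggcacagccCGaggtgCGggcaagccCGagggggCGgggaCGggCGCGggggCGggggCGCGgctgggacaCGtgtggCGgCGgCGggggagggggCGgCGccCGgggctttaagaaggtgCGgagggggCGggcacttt
Eomes: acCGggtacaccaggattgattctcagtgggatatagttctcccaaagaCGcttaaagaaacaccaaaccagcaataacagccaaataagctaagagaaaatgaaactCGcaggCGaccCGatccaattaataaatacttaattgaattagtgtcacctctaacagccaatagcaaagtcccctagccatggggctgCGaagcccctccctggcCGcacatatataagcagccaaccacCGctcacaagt
Tbr1: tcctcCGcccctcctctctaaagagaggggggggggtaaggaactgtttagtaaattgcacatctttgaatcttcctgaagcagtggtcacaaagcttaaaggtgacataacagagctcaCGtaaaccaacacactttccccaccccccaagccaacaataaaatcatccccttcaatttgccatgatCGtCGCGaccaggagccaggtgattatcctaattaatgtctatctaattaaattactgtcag
Hba-x: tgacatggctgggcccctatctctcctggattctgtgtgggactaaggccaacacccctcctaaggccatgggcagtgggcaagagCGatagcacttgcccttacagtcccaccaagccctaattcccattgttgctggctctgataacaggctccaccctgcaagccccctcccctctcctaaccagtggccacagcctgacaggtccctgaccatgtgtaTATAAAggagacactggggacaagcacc

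The printed stretch held 27 CG in *Sox2* and 37 in *Reln*, against 8 in *Eomes*, 5 in *Tbr1* and 1 in *Hba-x*. Over the whole window, G and C made up 66.3% in *Sox2* and 80.7% in *Reln*, but 47.3% in *Eomes* and 46.0% in *Tbr1*, neither of which was CpG-rich. All 4 neural genes were nonetheless well above the limit, with means of 11.998, 11.73, 11.98 and 10.95. TATAAA occurred in the *Hba-x* stretch alone, beginning 28 bases before the start.

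The 3 factors of the study's cascade were all above both limits. *Pax6* had 10.52, 10.48 and 10.60 in controls 1, 2 and 3, higher than 79.9% of genes. *Eomes* had 12.10, 11.70 and 12.13, higher than 96.2% of genes, and *Tbr1* had 11.01, 10.96 and 10.88, higher than 86.3%. *Eomes* was the least even of these, its SD of 0.24 standing above the 0.06 of both *Pax6* and *Tbr1*, with control 2 the lowest.

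RGP markers were high as a list. All 18 measured members were above both limits, with a median percentile of 88.2 (the percent of genes with a lower mean). Behind *Fabp7* and *Vim* came *Lhx2*, a LIM homeodomain factor that specifies cortical identity, with 13.33, 13.35 and 13.46, and *Sox2*, a progenitor factor, with 12.03, 11.86 and 12.10. The lowest were *Prom1* (9.45) and *Hopx* (8.80, close to the median gene), the second of which is best known in outer radial glia. All 15 IP markers were also above both limits (median percentile 86.6). *Mfap4* led with a mean of 12.78, followed by *Nhlh1* (12.18), *Eomes* and *Neurog2* (11.92), the proneural factor of cortical neurogenesis. The lowest was *Dll3* (9.55), a Notch pathway ligand.

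Pan-neuronal markers had the highest median signal of the cell class lists. All 18 pan-neuronal genes passed both limits, their median percentile was 96.4, and 12 of them lay over the 90th percentile. *Dcx* (13.41), *Stmn2* (13.09) and *Ina* (13.08), all of the young neuronal cytoskeleton, and *Neurod6* (13.06), a factor of pyramidal neurons, led the list. The lowest were the neurofilament genes *Nefm* (9.24) and *Nefl* (8.76), which are known to rise later as axons mature.

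Deep-layer genes passed in 11 of 11 cases (median percentile 90.9) and upper-layer genes in 9 of 9 (83.5). *Fezf2*, which specifies subcerebral projection neurons, had 12.86, 12.91 and 12.87, and *Sox5*, *Lmo3* and *Otx1* had means of 12.05, 11.76 and 11.56. Among upper-layer genes *Pou3f3* had 11.30, 11.34 and 11.33, ahead of *Lmo4* (11.02), *Mef2c* (10.98) and *Plxnd1* (10.82), while *Rorb*, a layer 4 factor, was the lowest at 8.76. Many of these upper-layer genes are also known in progenitors or other neurons at this age, so their level is not that of born upper-layer neurons alone. In whole tissue the level of the deep-layer genes cannot be assigned to deep-layer neurons alone either. Of 6 subplate genes, 5 passed, led by *Nr4a2* (11.15) and *Nxph4* (10.91), and *Moxd1* (6.70) did not.

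The Cajal-Retzius list (median percentile 52.6) and the subpallial and interneuron list ranked lower than the pan-neuronal, deep-layer and upper-layer lists. Numbers of cells were not measured. All 9 Cajal-Retzius genes passed the first limit and 5 the stricter one. *Reln*, which encodes the extracellular protein that guides layering, was far above the others with 11.70, 11.74 and 11.74, followed by *Ebf3* (9.74), *Cacna2d2* (9.33) and *Nhlh2* (9.09), and the lowest were *Lhx5* (8.05) and *Lhx1* (7.60). Subpallial and interneuron genes passed in 12 of 13 cases (10 at the stricter limit), with a median percentile of 55.1. *Sst*, the neuropeptide somatostatin, was the highest (11.07, 10.47 and 10.44), then *Lhx6* (10.34), *Dlx1* (9.95) and *Dlx2* (9.89). *Isl1*, a factor of striatal progenitors and neurons, was below the limit (6.24).

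Glial and vascular lists were near or below the middle of the range. Their counts stand beside 64.9% of all genes at the first limit and 55.4% at the stricter one. In the oligodendrocyte lineage 5 of 9 genes passed but 1 at the stricter limit (*Olig1*, 8.62), and *Pdgfra* (6.76) and *Mag* (6.58) were the lowest. Of 5 astrocyte genes 2 passed, 1 of them at the stricter limit. *Gja1*, a gap junction gene that radial glia also express, had 10.20, 10.24 and 10.84, and *Aldh1l1* had a mean of 8.05, whereas *S100b* (7.05), *Gfap* (7.01) and *Aqp4* (6.76) were below the limit. Microglial genes passed in 6 of 10 cases (3 at the stricter limit), led by *Cx3cr1* (8.57, 9.07 and 8.68) and *C1qb* (8.61). All 10 endothelial genes passed, 9 of them at the stricter limit, led by *Cdh5* (9.72), the cadherin of vessel walls, and *Cldn5* (8.89), a tight junction gene of the blood-brain barrier. Mural cell genes passed in 6 of 8 cases (5 at the stricter limit), led by *Notch3* (9.99) and *Rgs5* (9.40), with *Acta2* (7.34) and *Anpep* (7.11) not above.

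Lists of tissues next to the neocortex and of red cells had median percentiles of 41.4 (meninges), 33.8 (choroid plexus and hem) and 41.9 (erythroid). The meningeal and erythroid shares at the first limit were near the 64.9% of all genes, and 55.4% of all genes passed the stricter one. Meningeal genes passed in 9 of 14 cases, 4 at the stricter limit, led by *Bgn* (10.14) and *Igf2* (9.70), with *Lum* (5.81) the lowest. Of 16 choroid plexus and cortical hem genes, 5 passed (3 at the stricter limit): *Igfbp2* (10.34), *Rspo3* (10.18), *Rspo1* (9.11), *Wnt2b* (7.97) and *Wnt3a* (7.68). The defining choroid plexus genes *Ttr* (6.93), *Folr1* (7.02) and *Kl* (5.96) were not above the limit. Erythroid genes passed in 4 of 6 cases (3 at the stricter limit), with *Hbb-y*, an embryonic beta-like globin, at 12.55, 12.32 and 12.33 and *Hba-x* at 10.48, 9.98 and 10.18.

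**Figure D3:**
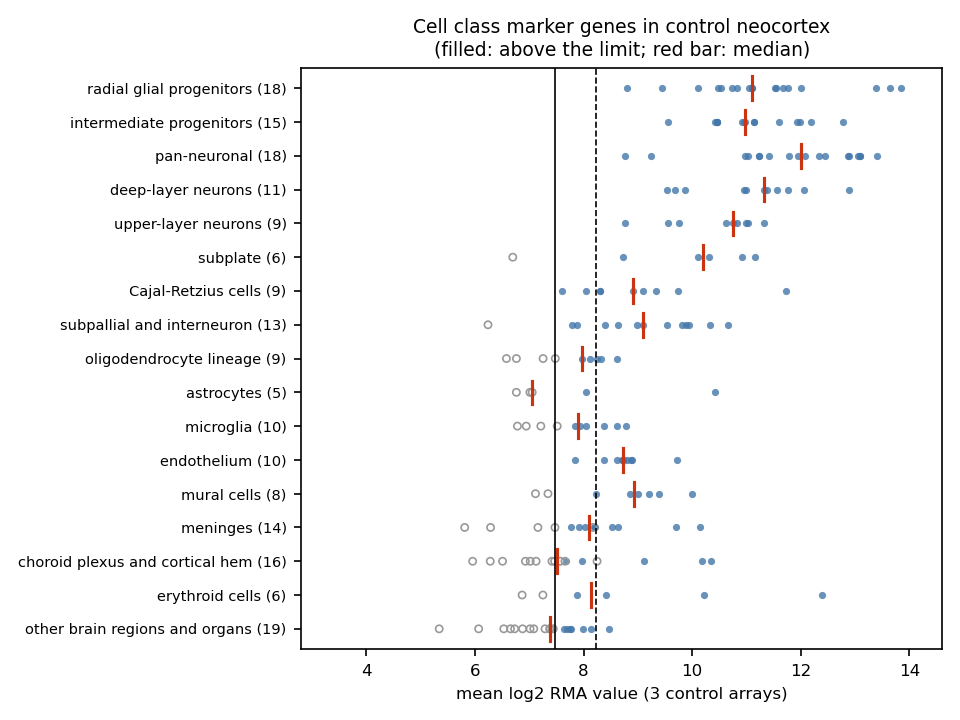
Mean log2 RMA value over 3 control arrays (x axis) of the markers of 17 cell classes (rows, number measured in parentheses). Filled points are above the limit on all 3 arrays, open points are not, red bars are medians, and the solid and dashed lines are the means of the first (95th percentile) and stricter (99th percentile) limits. All RGP, IP, pan-neuronal, deep-layer and upper-layer genes lie right of both lines, and choroid plexus and other-organ genes straddle them.

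Genes of cortical area identity were high as a group. All 10 measured members passed the first limit and 9 the stricter one, with a median percentile of 81.6. *Lhx2* (13.38) and *Meis2* (13.17) stood above *Id2* (12.62), and *Nr2f1* (COUP-TFI), which patterns caudal areas, had a mean of 10.90. *Etv5* (9.48) and *Sp8* (8.34), known from rostral cortex, were the lowest.

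Transcription factor families, defined by symbol, passed the first limit in 155 of 249 genes (62.2%), close to the 64.9% of all genes. At the stricter limit 107 of 249 passed, a smaller share than the 55.4% of all genes. Differences between families were wide. The 4 nuclear factor I genes, regulators of gliogenesis and of neuronal maturation, had means of 13.69 (*Nfix*), 13.54 (*Nfib*), 13.21 (*Nfia*) and 10.09 (*Nfic*). The 3 E proteins, partners of proneural bHLH factors, had 13.28 (*Tcf4*), 12.60 (*Tcf12*) and 11.34 (*Tcf3*). Sox genes passed in 16 of 18 cases (13 at the stricter limit), led by *Sox11* (13.10), a factor of differentiating neurons, *Sox5*, *Sox2* and *Sox9* (11.67), while *Sox30* (7.52) and *Sox17* (7.25), the second of which is a factor of endoderm and endothelium, did not.

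In several families a few members had much higher signals than the rest. LIM homeodomain and neural bHLH genes passed the first limit at shares near the 64.9% of all genes. Of 15 T-box genes, 6 passed the first limit and 3 the stricter one, and *Eomes* and *Tbr1* stood well above the next, *Tbx2* (8.50), which was followed by *Tbx1* (8.23), *Tbx21* (8.03) and *Tbx10* (7.66). Of 9 Pax genes, *Pax6* (10.53) and *Pax1* (7.58) passed, the second narrowly and not at the stricter limit. Of 12 LIM homeodomain genes 8 passed, 3 at the stricter limit, with *Lhx2* (13.38) far ahead of *Lhx6* (10.34) and *Lhx9* (10.09). Neural bHLH activators passed in 12 of 18 cases (10 at the stricter limit), headed by *Neurod6*, *Nhlh1*, *Neurod2* (12.08) and *Neurod1* (11.94), with *Ptf1a* (6.16) and *Ascl3* (5.55) at the bottom. Among TALE homeodomain genes, all 9 of which passed and 8 at the stricter limit, *Meis2* (13.17) stood far above *Pbx2* (10.59).

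Hox and GATA genes were mostly under the limit. Of 32 Hox genes, which pattern hindbrain, spinal cord and trunk, 5 passed the first limit (*Hoxb1*, *Hoxd11*, *Hoxb6*, *Hoxd1* and *Hoxb13*, means 7.67 to 8.30) and 0 the stricter one. GATA genes passed in 2 of 6 cases (*Gata6*, 8.18, and *Gata4*, 7.74), and 0 of 6 at the stricter limit. Forkhead genes passed in 24 of 37 cases, near the 64.9% of all genes. At the stricter limit 15 of 37 passed, a smaller share than the 55.4% of all genes. The highest were *Foxn3* (11.47), *Foxj3* (11.17), *Foxp4* (11.05) and *Foxp1* (10.88), and the lowest *Foxf1* (6.38) and *Foxc2* (6.19).

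Hes, Hey and Id genes, mostly targets of Notch and BMP signalling, passed in 11 of 11 cases (7 at the stricter limit), from *Id2* (12.62), *Id4* (11.54), *Hey1* (11.08) and *Hes5* (10.94, 10.99 and 11.20) down to *Hes7* (8.14) and *Id1* (7.81). POU genes passed in 6 of 9 cases (5 at the stricter limit), shares near the 64.9% and 55.4% of all genes. They were led by *Pou3f3* and *Pou6f1* (10.96). *Pou4f3* (7.24), *Pou2f3* (7.02) and *Pou5f1* (6.07), the pluripotency factor Oct4, were below. Of 38 nuclear receptors 21 passed (55.3%), 17 at the stricter limit, both smaller shares than those of all genes. They were headed by *Thra* (12.62), the thyroid hormone receptor alpha, *Nr2e1* (11.75), *Nr2c2* (11.59) and *Nr4a2* (11.15). *Nr1i3* (5.91) and *Nr1h5* (4.52) were the lowest.

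**Figure D4:**
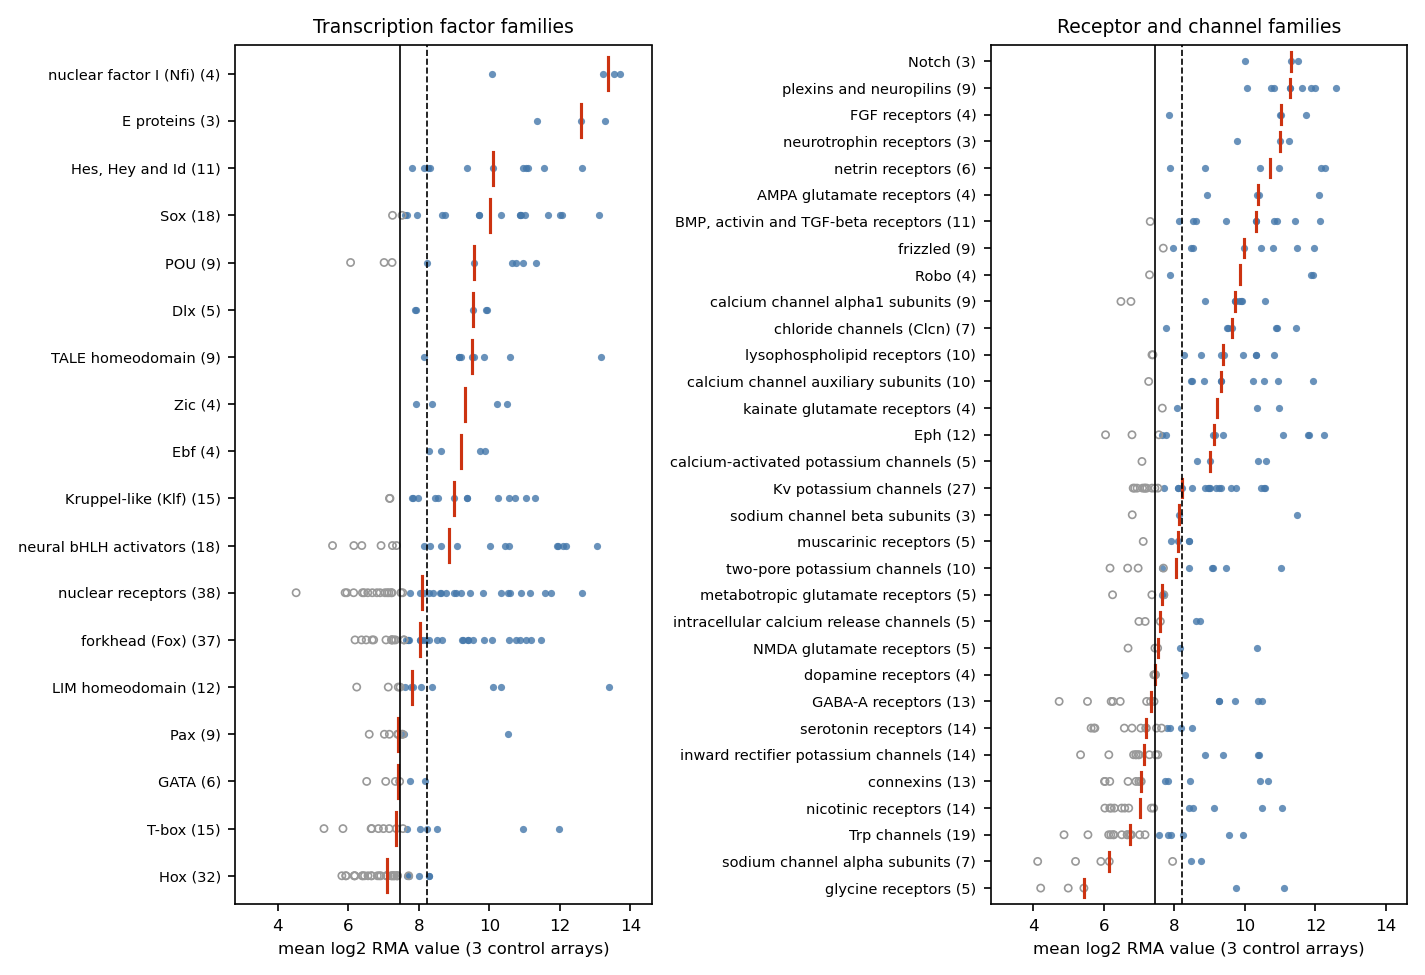
Mean log2 RMA value over 3 control arrays (x axis) of the members of transcription factor families (left) and of receptor and channel families with 3 or more measured members (right), 1 row per family ordered by its median (red bar), with the number measured in parentheses. Filled points are above the limit on all 3 arrays and open points are not. The solid and dashed lines are the mean first and stricter limits. Nuclear factor I and E proteins head the left panel and Hox genes close it.

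Signalling genes as a class were near all genes at the first limit. Ligand genes passed in 59 of 88 cases (67.0%) and receptors in 97 of 146 (66.4%), against 64.9% of all genes. At the stricter limit 36 of 88 ligand and 75 of 146 receptor genes passed, both smaller shares than the 55.4% of all genes. All 3 measured Notch receptors passed, with 11.52 (*Notch1*), 11.31 (*Notch2*) and 9.99 (*Notch3*), and all 5 Notch ligands (4 at the stricter limit), with *Dll1* (10.46) and *Dll3* (9.55) above *Jag1* (8.95), *Jag2* (8.72) and *Dll4* (8.27). Wnt genes, secreted ligands that pattern the cortex and regulate progenitors, passed in 12 of 19 cases but in 2 at the stricter limit, *Wnt7b* (10.70, 10.58 and 10.65) and *Wnt7a* (9.44). Their frizzled receptors passed in 8 of 9 cases (7 at the stricter limit), led by *Fzd3* (11.97), which is required for axon tracts, and *Fzd8* (11.48), with *Fzd10* (7.69) not above. Among secreted Wnt antagonists *Sfrp1* (12.83) and *Sfrp2* (11.19) were the 2 of 9 above the stricter limit.

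*Fgfr1* (11.75), *Fgfr3* (11.03) and *Fgfr2* (11.00) were above both limits and *Fgfr4* (7.86) above the first. Of their 19 ligand genes measured, 10 passed (52.6%), 6 at the stricter limit, both smaller shares than the 64.9% and 55.4% of all genes. They were headed by *Fgf13* (10.45), an intracellular member that binds sodium channels and microtubules, and *Fgf18* (9.54). Of 11 BMP, activin and TGF-beta receptor genes 10 passed, 9 at the stricter limit, led by *Bmpr2* (12.14) and *Bmpr1a* (11.43), with *Tgfbr3* (7.32) below. *Bmp1* (10.91), a protease rather than a true ligand, led the Bmp genes, of which 4 of 10 passed and 2 at the stricter limit.

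Axon guidance families differed in how many members passed. Their counts stand beside 64.9% of all genes at the first limit and 55.4% at the stricter one. All 9 plexins and neuropilins, the receptors of semaphorins, passed, from *Plxna2* (12.58) to *Plxnb1* (10.75) and *Plxnc1* (10.08), and so did 16 of 18 semaphorins (14 at the stricter limit), led by *Sema5a* (11.78), with *Sema3e* (6.87) and *Sema3d* (6.77) below. All 6 netrin receptors passed, 5 at the stricter limit, with *Neo1* (12.29) and *Dcc* (12.17) highest and *Unc5c* (7.88) lowest, whereas *Ntn1* had a mean of 7.93. *Robo2* (11.92) and *Robo1* (11.87) were near each other and well above *Robo4* (7.88), a vascular member that passed the first limit only, and *Robo3* (7.30), which was not above the limit. Of the Slit ligands, *Slit1* had a mean of 10.83 and *Slit2* of 9.63. Eph receptors passed in 9 of 12 cases (7 at the stricter limit), led by *Epha4* (12.25), *Epha5* (11.82), *Epha3* (11.79) and *Epha7* (11.09), with *Epha2* (7.56), *Epha6* (6.80) and *Epha1* (6.05) below, and all 7 ephrins passed, 6 at the stricter limit, led by *Efnb2* (11.87).

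Among 19 classical cadherins 12 passed (63.2%), near the 64.9% of all genes. At the stricter limit 8 passed, a smaller share than the 55.4% of all genes. *Cdh2* (12.85), the N-cadherin of ventricular junctions, was the highest, then *Cdh13* (11.42) and *Cdh11* (11.19), and the epithelial *Cdh1* (6.81) and *Cdh3* (6.19), named here after their values were seen, were below. All 3 measured neurotrophin receptors passed, with *Ntrk2* at 11.26, *Ntrk3* at 10.99 and *Ngfr* at 9.78.

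Neurotransmitter receptors were uneven by subunit. All 4 AMPA receptor genes passed, *Gria2*, the subunit that makes channels impermeable to calcium, with 12.16, 12.30 and 11.87 and the others with means of 10.40 (*Gria3*), 10.35 (*Gria1*) and 8.93 (*Gria4*). Of the 5 NMDA receptor genes measured, which did not include *Grin1*, *Grin2b*, the embryonic subunit, had 10.59, 10.46 and 10.01. *Grin2d* had a mean of 8.16 and passed the first limit only. *Grin2c* (7.53), *Grin3b* (7.45) and *Grin2a* (6.69), the subunit known to rise after birth, were not above the limit. *Grik2* (10.97) and *Grik5* (10.34) led the kainate receptors.

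The counts of this paragraph stand beside 64.9% of all genes at the first limit and 55.4% at the stricter one. GABA-A subunits passed in 5 of 13 cases (38.5%), *Gabra2* (10.48), *Gabra3* (10.38), *Gabrb2* (9.73), *Gabra4* (9.28) and *Gabra5* (9.27). *Gabrp* (5.54) and *Gabra6* (4.74), the second of which is a subunit of cerebellar granule cells, were lowest. Of 5 glycine receptor genes, *Glra2*, the fetal alpha subunit, had 11.28, 11.15 and 10.90 and *Glrb* a mean of 9.76, and *Glra4* (5.44), *Glra1* (4.99) and *Glra3* (4.21) were far below the limit. Nicotinic receptors passed in 5 of 14 cases (4 at the stricter limit), led by *Chrnb2* (11.05) and *Chrna7* (10.48). Few monoamine receptors passed the stricter limit. Serotonin receptors passed in 4 of 14 cases, of which *Htr1b* (8.50) alone passed the stricter limit, and dopamine receptors in 1 of 4 (*Drd4*, 8.31), which did not. Both adrenergic receptor genes measured, *Adra1b* (8.05) and *Adra2c* (7.71), passed the first limit and 0 the stricter one.

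Glutamate and GABA transporters passed in 6 of 7 cases. The glial glutamate transporter *Slc1a3*, also of radial glia, had a mean of 11.10, the vesicular glutamate transporters *Slc17a6* 10.79 and *Slc17a7* 10.67, and the vesicular GABA transporter *Slc32a1* 8.38, with *Slc17a8* (7.03) below. All 18 synaptic vesicle genes passed both limits, from *Snap25* (12.44), *Vamp2* (11.98) and *Rab3a* (11.84) to *Stx1a* (9.30) and *Rims1* (8.32). Of the chloride cotransporters, which set whether GABA excites or inhibits, *Slc12a2* (NKCC1) had 9.74, 9.88 and 9.76, and *Slc12a5* (KCC2) had 7.86, 7.73 and 7.77, above the first limit and not the stricter one.

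At the first limit 72 of 130 ion channel genes passed (55.4%), against 64.9% of all genes. This was a lower share than in the transcription factor, ligand and receptor classes. At the stricter limit 56 of 130 passed, a smaller share than the 55.4% of all genes. There the channels were not the lowest, since ligand genes (36 of 88) and transcription factors (107 of 249) had slightly lower shares. Of 7 sodium channel alpha subunits, *Scn8a* (8.77) and *Scn3a* (8.70, 8.57 and 8.17) passed, 1 of them at the stricter limit, and *Scn7a* (4.13) was lowest, whereas the auxiliary subunit *Scn3b* had 11.47, 11.62 and 11.34. Calcium channel alpha1 genes passed in 7 of 9 cases, led by *Cacna1h* (10.57), and the muscle and retinal genes *Cacna1s* (6.77) and *Cacna1f* (6.49) did not. Kv potassium channels passed in 17 of 27 cases (63.0%), near the share of all genes, and in 13 at the stricter limit. They were led by *Kcna3* (10.58), *Kcnq3* (10.53) and *Kcnd3* (10.47). Inward rectifiers passed in 4 of 14 cases, *Kcnj3* (10.41), *Kcnj10* (10.36), *Kcnj11* (9.37) and *Kcnj8* (8.86). Connexins passed in 5 of 13 cases (3 at the stricter limit), with *Gjc1* (10.65) and *Gja1* (10.43), the second of which couples radial glia, well above *Gja4* (8.45), *Gjd3* (7.82) and *Gjb1* (7.74). Trp channels passed in 6 of 19 cases and in 2 at the stricter limit, *Trpm7* (9.96) and *Trpc1* (9.55). All 7 Clcn chloride channels and transporters passed, 6 at the stricter limit, led by *Clcn6* (11.45).

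Chromatin regulators, the subject of the study, were mostly above the median gene. Every measured member of the 8 lists of complexes and enzymes, some genes being in more than 1 list, was above the first limit. At the stricter limit 11 of 14 DNA methylation genes and 10 of 11 Polycomb repressive complex 2 genes passed, and all members of the other 6 lists. The 12 NuRD subunits had the highest median percentile (95.3), led by *Gatad2b* (12.97) and *Rbbp4* (12.45), followed by the 25 BAF remodelling subunits (90.9), led by *Actl6a* (12.57) and the ATPase *Smarca4* (12.51). Median percentiles were 87.5 for Polycomb repressive complex 2, where the methyltransferase *Ezh2* had a mean of 12.36 and its paralog *Ezh1* 9.52, and 80.5 for Polycomb repressive complex 1, led by *Rnf2* (11.72). Among DNA methylation genes *Dnmt1* (11.53) and *Dnmt3a* (10.41) passed the stricter limit and *Dnmt3b* (7.90), *Gadd45b* (7.78) and *Gadd45a* (7.77), all under the median gene, did not. The neuronal BAF subunit *Actl6b* had a mean of 11.18. *Rest*, the repressor of neuronal genes, had 9.01 and its corepressor *Rcor2* 11.98.

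Proliferation genes were high as well. All 18 G1 and S phase genes and all 18 G2 and M phase genes were above both limits, with median percentiles of 81.3 and 85.3. *Cdk4* and *Ccnd2* (13.14), the D-type cyclin of basal progenitors, led the first, and *Ccna2* (12.56), *Plk1* (11.74) and *Aurkb* (11.58) the second. *Cdc6* (8.32) and *Birc5* (8.87) were the lowest.

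The embryos were alike for most genes. Pearson correlations over genes lay between 0.994 and 0.996 for the 3 pairs of arrays, 86.3% of genes had an SD under 0.2, and the median SD was 0.0823 above the limit and 0.128 below it. Control 3 stood a little apart. Of all genes 50.7% had their highest value in it, 45.4% of those above the limit and 60.5% of those not above it. The pooled SD within genotype of the 9 mutant arrays had a median of 0.111. It rests on more arrays (6 degrees of freedom) than the control SD, so the medians are not directly comparable. The largest SDs in the controls belonged to Y-linked genes, *Eif2s3y* (10.93, 5.07 and 10.49) and *Kdm5d* (9.82, 5.52 and 9.60), which were above the limit in controls 1 and 3 and below it in control 2. By these genes controls 1 and 3 read as male and control 2 as female, and no result was split by sex.

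Among genes above the limit, 25 had an SD over 0.5. The largest was that of *Gsta4*, a glutathione transferase, with 7.72, 9.39 and 9.92 in controls 1, 2 and 3 (SD 1.15) and a pooled SD of 1.13 in the mutants. *Emp1* followed with 9.80, 8.77 and 10.72, *Prmt8*, a neuronal arginine methyltransferase, with 8.91, 9.74 and 7.85, *Prelp* with 7.68, 8.97 and 9.39, and *Taar7b*, a trace amine receptor gene, with 9.55, 10.09 and 11.19. No embryo was high or low in all 5.

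Of the 20 most variable genes, 19 also had a spread within mutant genotypes above the 90th percentile of all genes. The exception was *Supt4a* (SD 0.53 in controls and 0.14 in mutants). Of the 20, 5 are described here by known role, picked out after their values were seen. *Rspo1*, a Wnt agonist, had 8.49, 9.03 and 9.81, *Wnt5a* 8.14, 8.87 and 9.44, *Dkk3* 8.06, 8.55 and 9.16, *Apcdd1*, a Wnt inhibitor, 7.56, 7.99 and 8.66, and *Hey2*, a Notch target, 8.998, 9.08 and 10.02. Over the 20 genes, 16 were highest in control 3 and 13 of them lowest in control 1, an order found in 21.7% of all genes above the limit. *Tfap2d* went the other way, with 9.32, 8.70 and 8.10. Without control 3 the SD of 12 of the 20 changed by more than 1.5 times, for example to 0.06 for *Hey2* and 0.38 for *Rspo1*.

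The same order was found in the choroid plexus and cortical hem list. Its mean was 7.40, 7.69 and 8.06 in controls 1, 2 and 3, 15 of its 16 genes were highest in control 3, and 13 of these were lowest in control 1. Of all genes 24.9% were highest in control 3 and lowest in control 1, and 60.5% of genes not above the limit, as 11 of the 16 were, were highest in control 3. *Wnt8b*, a hem and hippocampal Wnt gene named after its values were seen, had 6.95, 8.76 and 9.04, and so missed the limit through control 1 alone. *Ttr* was at 6.78, 7.01 and 6.99, with none of the controls above the limit. Within mutant genotypes 11 of the 16 had a spread above the 90th percentile, *Ttr* with a pooled SD of 1.71 among them. Genes of other regions and organs, at similar signals, were also highest in control 3 in 15 of 19 cases, but their list means of 7.21, 7.12 and 7.33 spanned less. How much hem or choroid tissue each dissection held was not tested.

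Genes of Cajal-Retzius cells, some of which are born in the hem, had list means of 8.87, 8.99 and 9.15, with 7 of 9 highest in control 3 and lowest in control 1, though *Reln* itself varied by an SD of 0.02. Meningeal genes had list means of 7.86, 8.01 and 8.13, *Dcn* ranging most with 7.24, 8.28 and 9.002. Subpallial and interneuron genes showed the opposite order, with list means of 9.12, 8.99 and 8.93 and 9 of 13 highest in control 1 and lowest in control 3, against 16.4% of all genes above the limit. *Gad1*, which makes GABA, had 9.30, 8.90 and 8.73. Upper-layer genes had 10.46, 10.43 and 10.31, with 0 of 9 highest in control 3. The means of the RGP list (11.25, 11.28 and 11.39) spanned about as much, with 12 of 18 genes highest in control 3, and those of the pan-neuronal list were 11.90, 11.79 and 11.78, with 8 of 18 highest in control 1 and lowest in control 3.

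**Figure D5:**
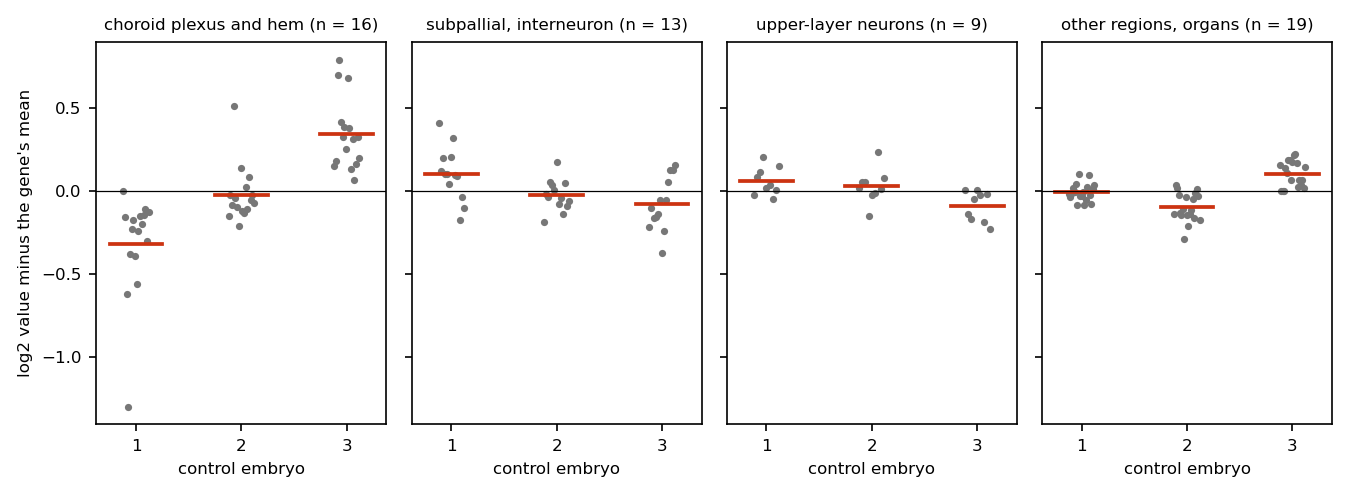
Deviation of each gene's log2 RMA value from its mean over the 3 controls (y axis) in control embryos 1 to 3 (x axis), for 4 lists. Grey points are genes and red lines list means. Choroid plexus and hem genes lie mostly below zero in control 1 and above it in control 3, interneuron genes mostly the other way.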

How the data were processed

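The authors extracted RNA from single dissected neocortices and hybridised each to its own array. The deposited table holds log2 values that the authors made with RMA in oligo (submitters' processing notes, versions and annotation release not given in the sources used here), already background-corrected and normalised, so no further scaling was applied, and arrays give no read depth: their number, 3, limits precision. GEO's text gives another number of embryos per genotype than its sample labels, and the labels were used. Probesets were named from the platform annotation with current RefSeq symbols (14805 of 14860 genes). Of a gene's several probesets the one with the highest mean was kept (135 genes). The limit was the 95th percentile of 712 olfactory receptor genes on each array. All results are descriptions of 3 controls, so no test was made. Members and lists were chosen with earlier results of these data known, and 12 of 35 lists and 10 of 72 families were added after the files had been seen. Named genes were *Pax6*, *Eomes*, *Tbr1*, the 30 highest, the 20 most variable above the limit and, in each list or family, up to 4 highest, 2 lowest and any side of the limit with 5 or fewer; a few other members were named after their values were seen. Promoter windows came from RefSeq (GRCm38.p6). Steps were tested on simulated data. Python 3.11.15, pandas 2.3.3, numpy 2.4.6 and matplotlib 3.10.9 were used.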

Additional observations from a re-analysis of the deposited data

How the results depend on the processing

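The number of genes above the limit was 9639 to 9646 with the mean of a gene's probesets or repeated quantile normalization, 9959 when the mean of the arrays had to pass, 9623 without sensory receptor genes (added after seeing the data), 8227 with the 99th percentile, 11358 with vomeronasal receptor genes, 13303 of all 23332 probesets, and 9674 to 9884 with 1 control left out. Of 104 lists and families, 34 counts changed by more than 1.5 times with the 99th percentile, all of them falling. The median signal was 8.18 over all probesets and 8.93 without sensory receptor genes, and 8.73 to 8.75 with 1 control left out. The median SD was 0.0573 to 0.0897 with 1 control left out, the lowest without control 3. Without sensory receptor genes, 10.0% of promoters in the lowest bin were CpG-rich, and TATAAA before the start was found in 7.52% of the lowest and 0.892% of the highest bin. With 1 control left out, the CpG-rich share was 73.2% to 73.5% in the highest and 5.89% to 6.20% in the lowest bin, and the TATAAA share 6.15% to 6.41% in the lowest. No paired analysis was possible because the results come from no test between groups. Signals near the limit, and genes without a probeset of their own symbol, could not be judged.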

Other observations

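Of 9 immediate early genes, which cells switch on within minutes of stimulation, 5 passed the first limit (55.6%) and 3 the stricter one. Both are smaller shares than the 64.9% and 55.4% of all genes. *Dusp1* (mean 11.62) and *Jun* (11.03) were high, *Arc* (8.72), *Junb* (8.14) and *Egr1* (7.83) nearer the limit, and *Fos* (6.57), *Npas4* (6.64), *Egr2* (6.51) and *Ier2* (7.59) not above it. All 9 had their highest value in control 3, as did 50.7% of all genes and 60.5% of those not above the limit, with list means of 8.22, 8.22 and 8.44 in controls 1, 2 and 3. Of 9 hypoxia and glycolysis genes 7 passed both limits (77.8%), larger shares than those of all genes. They were led by *Aldoa* (12.45), a glycolytic enzyme, and *Slc2a1* (12.12), the glucose transporter GLUT1, whereas *Adm* (6.45) and *Car9* (6.31) did not pass.

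The hnRNP and kinesin genes, for RNA-binding and motor proteins, mostly passed both limits, against 55.4% of all genes at the stricter one. All 13 hnRNP genes, which package and splice transcripts, were above both limits, led by *Hnrnpab* (13.09) and *Hnrnph1* (12.77). Of 27 kinesins 23 were above both limits, led by the axonal motors *Kif1a* (12.10), *Kif1b* (12.07) and *Kif5c* (11.73), with *Kif6* (7.43), *Kif9* (7.17), *Kif12* (7.10) and *Kif27* (6.65) below the first. Of 7317 probesets with no symbol, 3151 (43.1%) were above the first limit.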
